A study of Mus musculus with 16 samples.

Results

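Keratin mRNAs of the mouse small intestinal epithelium were examined in crypts and organoids that lacked Cul4b, the gene of a scaffold subunit of cullin-RING E3 ubiquitin ligases. The 7 genes were chosen by name: Krt5, Krt7, Krt8, Krt18, Krt19, Krt20 and Krt23, of 52636 genes listed in the crypt and KOCAG tables and 54532 in the KOIEC organoid table. They were named with the KO against WT results of these tables known, so their changes are given as a description with no p-value. The tables list 47 other protein-coding keratins, most of them hair and skin keratins.

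All 16 libraries came from small intestine of C57BL/6 mice. KOIEC crypts (n = 4) carried pVillin-Cre, active in the intestinal epithelium, together with the conditional allele Cul4b fn/Y, and were set against WT crypts (n = 4), which the study describes as Cul4b fn/Y without Cre. KOIEC organoids (n = 2) of the same genotype had their own WT organoids (n = 2), as did KOCAG organoids (n = 2), in which CAG-CreERT2 acts on Cul4b fn/Y after hydroxytamoxifen. Whether the WT organoids of the last experiment carried the Cre or received the drug is not given in the sources used here, and neither is the medium of the sequenced organoids. The methods give the age of adult mice as a range for most experiments, not for single libraries. Villi were scraped off before crypts were released with EDTA. Cul4b lies on the X chromosome, so 1 conditional allele was deleted in males.

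Keratins are the intermediate filament proteins of epithelial cells. Filaments are built from heterodimers of a type II and a type I keratin, so neither type polymerises alone. In simple epithelia such as the intestine, Krt8 is the main type II partner of the type I keratins Krt18 and Krt19, and Krt20 is the type I keratin that marks differentiated cells toward the villus. Krt7 is a type II keratin of ducts and other simple epithelia, Krt23 is a less studied type I keratin, and Krt5 is the type II keratin of basal cells in stratified epithelia, where it pairs with Krt14.

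The type II genes lie on chromosome 15 in the positions of the crypt table. They are Krt7 (ENSMUSG00000023039, chr15:101411043-101430313, plus strand), Krt5 (ENSMUSG00000061527, chr15:101707070-101712891, minus strand) and Krt8 (ENSMUSG00000049382, chr15:101996711-102004342, minus strand). Krt18 (ENSMUSG00000023043, chr15:102028216-102032026, plus strand) is the 1 type I member on that chromosome, 23.9 kb from its partner Krt8. The other type I genes lie on the minus strand of chromosome 11: Krt20 (ENSMUSG00000035775, chr11:99428403-99438150), Krt23 (ENSMUSG00000006777, chr11:99477974-99493137) and Krt19 (ENSMUSG00000020911, chr11:100140810-100148665). Krt20 and Krt23 are separated by 39.8 kb, and Krt23 and Krt19 by 648 kb.

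The sequences before the start sites of Krt20, Krt23 and Krt5 are shown because these 3 genes had the largest KO over WT values in KOCAG organoids. They are from RefSeq on GRCm38.p6, which held 6 of the 7 members (no entry for Krt19), and each is written 5′ to 3′ on the strand of the gene. The windows are chr11:99438154-99438403 for Krt20, chr11:99493138-99493370 for Krt23, where the 17 bases nearest the start were left out because the tables place them inside the gene, and chr15:101712906-101713155 for Krt5. Capitals mark matches on either strand to TATAAA, to its core ATAAAA, which overlaps it, to the GC box GGGCGG, to CACCC, a sequence bound by KLF and SP factors, or to the AP-1 site TGANTCA.
Krt20: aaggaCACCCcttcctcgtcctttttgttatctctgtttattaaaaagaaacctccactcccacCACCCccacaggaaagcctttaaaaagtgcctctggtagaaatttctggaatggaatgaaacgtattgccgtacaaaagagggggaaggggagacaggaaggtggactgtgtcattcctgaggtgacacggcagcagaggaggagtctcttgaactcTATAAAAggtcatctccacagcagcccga
Krt23: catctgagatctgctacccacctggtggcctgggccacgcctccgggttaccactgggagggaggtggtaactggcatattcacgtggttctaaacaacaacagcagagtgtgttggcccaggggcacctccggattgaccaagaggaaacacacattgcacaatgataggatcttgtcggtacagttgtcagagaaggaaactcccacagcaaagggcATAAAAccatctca
Krt5: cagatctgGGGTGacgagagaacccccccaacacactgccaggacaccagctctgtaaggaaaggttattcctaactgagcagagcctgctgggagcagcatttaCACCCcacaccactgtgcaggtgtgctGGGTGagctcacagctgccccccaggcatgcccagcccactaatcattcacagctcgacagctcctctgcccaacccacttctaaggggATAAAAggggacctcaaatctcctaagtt
The core ATAAAA was added to the search after the sequences were read. Counted from the RefSeq starts, it stood 28 to 23 bases before Krt20, 31 to 26 before Krt23 and 29 to 24 before Krt5. By the deposited gene positions Krt23 starts 17 bases further upstream, which is nearer to its ATAAAA. The full TATAAA was found in Krt20 alone among the 6 members. In the 250 bases before the start, ATAAAA was in 4 of 6 members (the fourth, Krt7, had it 7 to 2 bases before the start) and in 17.0% of 32851 promoters, and TATAAA was in 12.4% of them. Neither was in those of Krt8 and Krt18. By the positions of the KOIEC organoid table, 140 bases of the Krt8 window and 36 of the Krt18 window lie inside the gene. Since ATAAAA was chosen from these sequences, which members hold it supports nothing further. CACCC was in 5 of 6 members and 52.0% of promoters, GGGCGG in 1 of 6 members (Krt7) and 32.7%, and TGANTCA in none of the 6 members and 6.75%. A match is a match of letters and was not tested as a binding site.

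Depth was 7348191 to 16881395 counts per library, and the 7 keratins took 0.392% to 0.797% of the counts of a library. Cul4b mRNA was 31.7 to 38.3 CPM (counts per 1e6 counts) in WT crypts and 0.848 to 2.21 CPM in KOIEC crypts, and it was similarly low in KO organoids of both kinds (1.69 to 5.19 CPM against 70.1 to 83.2 CPM in WT). The villus and brush border gene Vil1 was at 596 CPM or more in every library, while the summed fibroblast, smooth muscle and endothelial markers each stayed at 7.36 CPM or less. Crypt libraries stood apart in mitochondrial ribosomal RNA: WT replicates 2 and 3 had 2840 and 2873 CPM, WT replicate 4 and KO replicate 4 had 834 and 1078 CPM, and the other 4 libraries 18.9 to 25.2 CPM. The methods call the libraries of a group biological replicates. For the organoids it is not stated whether these were cultures of separate mice, so p-values here measure the spread between these samples.

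Per length, Krt8 and Krt19 were the most abundant keratin mRNAs in every library. In WT crypts Krt8 was 2037 ± 187 CPM per kb (SD, n = 4), Krt19 1188 ± 166, Krt18 236 ± 44.1, Krt20 200 ± 107, Krt7 23.1 ± 3.75 and Krt23 3.92 ± 0.200. Each step in that order was wider than the spread between libraries except that between Krt18 and Krt20, whose ranges overlapped. The length that the table gives for Krt7, 7055 bases, is far above that of the other members (1400 to 2190 bases) and lowers its per-length level. Krt5 had 2 counts in 1 WT crypt library and none in the other 7 crypt libraries, where 3 counts correspond to 0.223 to 0.322 CPM.

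The order was partly the same in WT organoids, whose own levels are given side by side because the experiments were prepared separately. In the WT organoids of the KOIEC experiment Krt8 was 1210 ± 290 CPM per kb (SD, n = 2) and Krt19 939 ± 265, with overlapping libraries. Krt18 followed with 328 ± 0.480 CPM per kb, then Krt20 with 69.8 ± 1.25, while Krt23 (30.8 ± 18.7) and Krt7 (28.4 ± 3.99) overlapped. In the WT organoids of the KOCAG experiment Krt8 was 1110 ± 52.5 CPM per kb (n = 2), Krt19 593 ± 0.396, Krt18 420 ± 31.7, Krt20 46.4 ± 3.31, Krt23 24.1 ± 1.46 and Krt7 19.4 ± 0.0166, with no overlap between neighbours. Krt5 had no count in any of these 4 WT libraries, where 3 counts correspond to 0.178 to 0.395 CPM.

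**Figure D1:**
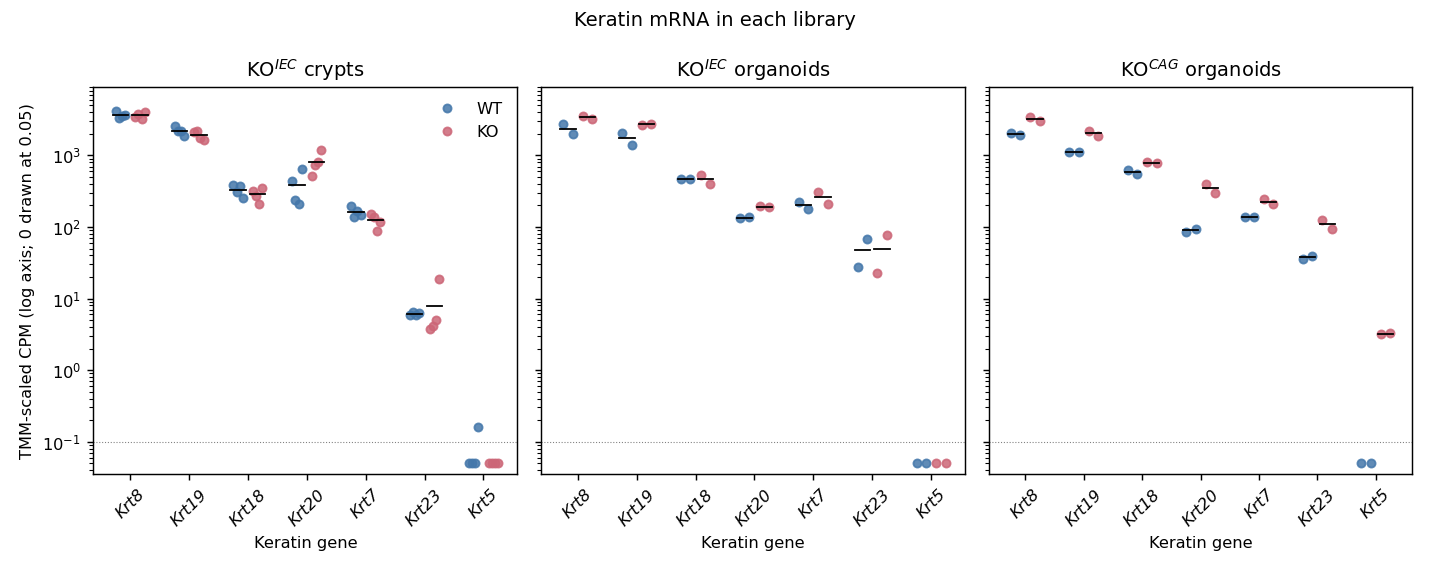
TMM-scaled CPM (log axis) of the 7 keratins in every library of the 3 experiments, WT in blue and KO in red, with a black bar at the mean of a group without zeros; values of 0 are drawn at 0.05, below the dotted line. In KOCAG organoids both KO libraries lie above both WT libraries for all 7 genes, whereas in crypts the groups overlap for each of them.

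In KOCAG organoids the keratins were higher in KO than in WT. The whole-table fit, the quasi-likelihood test of edgeR adjusted by Benjamini-Hochberg over all tested genes and called at 0.05, called 7 of the 7 members higher in KOCAG than in WT organoids. In that fit 31.5% of 13598 tested genes were called, 18.1% as higher and 13.4% as lower, so a call was common there. The libraries did not overlap for any of the 7 members, beside 69.7% of all tested genes. The median log2 fold change was 0.89 over the members and 0.0012 over all tested genes. Since the members were named with these results known, the counts support nothing beyond themselves. Krt5 had no WT reads and passed the filter on low counts through its KO reads. Its direction in these counts was therefore built in.

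Among the type II keratins of KOCAG organoids, Krt8 was 2070 and 1936 CPM in the WT libraries and 3467 and 3022 CPM in the KO libraries. Both KO values were above both WT values, and the fitted log2 fold change was 0.70 ± 0.10 (SE), a 1.62-fold difference. Krt7 was 137 and 136 CPM in WT and 243 and 209 CPM in KO, a log2 fold change of 0.72 ± 0.09. Krt5 had 0 and 0 counts in WT and 23 and 34 counts in KO, or 3.20 and 3.27 CPM. Set against a floor of 3 counts per WT library, Krt5 was at least 8.62-fold higher in KOCAG organoids, yet at 1.48 ± 0.0232 CPM per kb it remained the least abundant member. It was tested only because of its reads in KO, so a difference between the groups was built into its passing the filter on low counts.

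Among the type I keratins of the same organoids, Krt20 had the largest fold change of the 6 members with reads in both groups. Its levels were 84.9 and 93.9 CPM in WT and 399 and 299 CPM in KO, a log2 fold change of 1.96 ± 0.13 (SE) or 3.90-fold. Krt23 came next, at 36.0 and 39.3 CPM in WT and 126 and 93.9 CPM in KO, a log2 fold change of 1.54 ± 0.14 or 2.91-fold. KO replicate 1 was the higher of the KO libraries for these genes, as it was for Krt7, Krt8, Krt18 and Krt19.

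The other type I members, Krt19 and Krt18, had smaller values than Krt20 and Krt23. Krt19 was 1100 and 1101 CPM in WT and 2219 and 1848 CPM in KO, a log2 fold change of 0.89 ± 0.11 (SE). Krt18 was 620 and 557 CPM in WT and 807 and 783 CPM in KO, and its log2 fold change of 0.43 ± 0.09 was the smallest of the 7 members. Without WT replicate 2 Krt18 was no longer called (log2 fold change 0.35), while the other 6 members stayed called whichever library was left out. In each of these fits 1 group is a single library, assumed to vary like the other group, and Krt5 passes the filter through its KO reads. When all 16 libraries shared 1 estimate of the spread, 3 of the 7 members (Krt5, Krt19 and Krt20) were called in this comparison, among 477 genes in all, with nearly the same fold changes.

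In KOIEC crypts none of the 6 tested members was called, where 6.96% of 13427 tested genes were (4.3% higher and 2.66% lower). No member separated the 4 WT from the 4 KO libraries, as 17.5% of tested genes did. The median log2 fold change was −0.10 over the members and −0.01 over all tested genes. That share of 6.96% rested on single libraries. Leaving out any of the 8 moved the number of genes called from 934 to between 2 (KO replicate 2 or KO replicate 3) and 2468 (KO replicate 1), with 3 without WT replicate 2, 11 without WT replicate 3, 20 without WT replicate 1, 513 without KO replicate 4 and 1864 without WT replicate 4. It was 1 without the pair of WT libraries rich in mitochondrial ribosomal RNA and 2 when the class of that RNA entered as a covariate.

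Krt8, Krt19, Krt18 and Krt7 had fitted values at or slightly below 0 in crypts. Krt8 was 4151, 3358, 3553 and 3643 CPM in WT crypts and 3493, 3785, 3265 and 4019 CPM in KOIEC crypts, with a log2 fold change of −0.01 ± 0.14 (SE). Krt19 was 2615, 2163, 2167 and 1869 CPM in WT and 2136, 2208, 1767 and 1666 CPM in KO (−0.18 ± 0.15). For both genes the WT and KO ranges overlapped. Krt18 was 380, 310, 379 and 252 CPM in WT and 318, 275, 210 and 352 CPM in KO (−0.19 ± 0.19). Krt7 was 197, 140, 170 and 145 CPM in WT and 153, 138, 88.2 and 119 CPM in KO (−0.39 ± 0.18), so 3 of 4 KO libraries lay below all WT libraries.

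Krt20 was the member with the largest value in crypts. It was 438, 240, 209 and 653 CPM in WT and 516, 729, 814 and 1200 CPM in KOIEC crypts. WT replicate 4 stood above KO replicate 1, and the other 3 KO libraries stood above all WT libraries. The log2 fold change was 1.08 ± 0.38 (SE), a 2.12-fold difference that was not called. Leaving out WT replicate 4 gave 1.49 and a call, as did the fit without a low-count filter (1.06) and the fit of all 16 libraries (1.08). Leaving out any other library gave no call, with the lowest values 0.84 without KO replicate 4 and 0.88 without WT replicate 3. Within the 4 libraries low in mitochondrial ribosomal RNA (WT replicate 1 and KO replicates 1 to 3), Krt20 was 0.62 higher in KO on the log2 CPM scale, and within the pair of middle libraries 0.88 higher. The WT libraries highest in that RNA, replicates 2 and 3, were also the lowest in Krt20. With the class of this RNA as a covariate the log2 fold change was 0.74, and without those WT libraries it was 0.58, with no call in either fit.

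Krt23 was scarce in crypts, at 5.91, 6.50, 5.84 and 6.27 CPM in WT and 3.70, 4.12, 4.98 and 18.9 CPM in KOIEC crypts. In 3 of 4 KO libraries it was below every WT library, and in KO replicate 4 it was above them all. The log2 fold change of 0.37 ± 0.49 (SE) became −0.51 without that library. Krt5, with its 2 counts, did not pass the filter on low counts.

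In KOIEC organoids none of the 6 tested members was called, in a fit that called 1 gene, Cul4b, of 13938 (0.00717%, none or 0% as higher and 0.00717% as lower). At an unadjusted p under 0.05 the same fit of edgeR counted 650 genes, and the Wald test of DESeq2 called 26. The number of genes called was 2322 without KO replicate 1, 6 without KO replicate 2 and 0 without either WT library, and no member was called in any of these. The median log2 fold change was 0.44 over the members and −0.01 over all tested genes.

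Krt8, Krt19 and Krt20 were higher in both KO than in both WT libraries of this experiment, while such separation in either direction was seen in 38.9% of tested genes. Krt8 was 2771 and 1967 CPM in WT and 3587 and 3205 CPM in KO, a log2 fold change of 0.52 ± 0.24 (SE). Krt19 was 2090 and 1395 CPM in WT and 2650 and 2781 CPM in KO (0.64 ± 0.25). Krt20 was 133 and 136 CPM in WT and 195 and 187 CPM in KO (0.51 ± 0.15).

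The other members of KOIEC organoids overlapped between the groups. Krt18 was 471 and 470 CPM in WT and 527 and 401 CPM in KO (log2 fold change −0.02 ± 0.20), and Krt7 was 220 and 180 CPM in WT and 313 and 208 CPM in KO (0.38 ± 0.26). Krt23 was 27.5 and 68.9 CPM in WT and 22.4 and 77.5 CPM in KO (0.05 ± 0.71), a spread within each genotype that was far wider than the difference between them. Krt5 had no count in any of the 4 libraries.

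**Figure D2:**
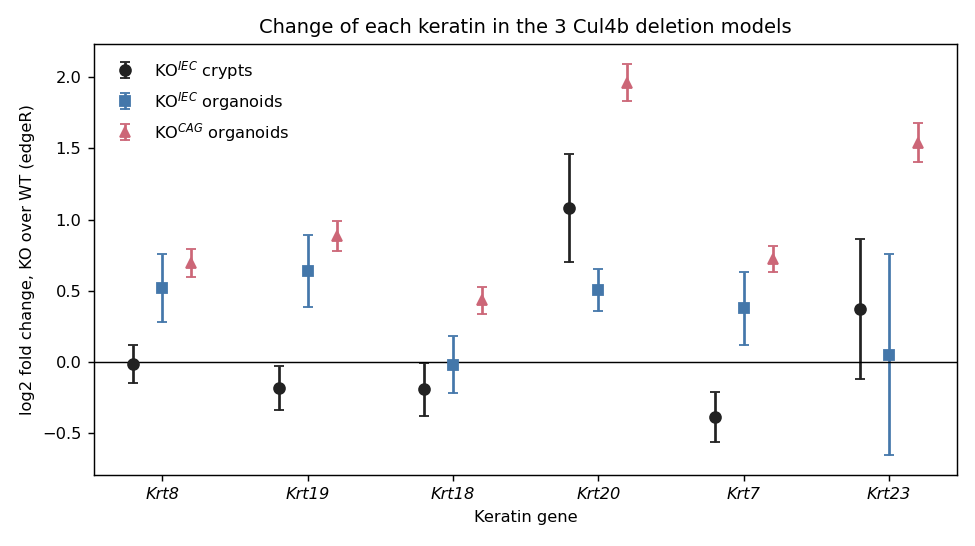
Fitted log2 fold change of KO over WT (vertical axis) with 1 standard error for the 6 keratins with reads in both groups, for KOIEC crypts (circles), KOIEC organoids (squares) and KOCAG organoids (triangles). Krt20 is above 0 in all 3 experiments, from 0.51 to 1.96, all 6 genes are at 0.43 or more in KOCAG organoids, and 4 of the 6 are below 0 in crypts.

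The 3 deletion models were set against each other by the difference of their KO effects in 1 fit of all 16 libraries over 15585 genes, each model having its own WT libraries. The fit called none of the members. It called 0.372% of genes between KOCAG organoids and crypts, 0.385% between both kinds of organoid and 0.00642% between crypts and KOIEC organoids. The effect in KOCAG organoids exceeded that in crypts by 1.10 ± 0.30 (log2, SE) for Krt7, 1.05 ± 0.26 for Krt19, 0.70 ± 0.22 for Krt8, 0.61 ± 0.28 for Krt18, 0.87 ± 0.56 for Krt20 and 1.16 ± 0.86 for Krt23. Against KOIEC organoids it was 1.46 ± 0.94 higher for Krt23, 1.44 ± 0.65 for Krt20, 0.33 ± 0.34 for Krt7, 0.44 ± 0.33 for Krt18, 0.22 ± 0.30 for Krt19 and 0.16 ± 0.26 for Krt8. Krt5 is left out, since it had almost no reads outside KOCAG organoids. These sizes describe the models and do not show that a keratin responded in one and not in another.

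Because filaments need both types, the balance of type II and type I mRNA was computed per length. Type II keratins made up 55.9 ± 0.981% (SD, n = 4) of keratin mRNA in WT crypts and 54.7 ± 0.661% in KOIEC crypts. In KOIEC organoids the share was 47.4 ± 1.48% in WT (n = 2) and 48.0 ± 2.22% in KO. In KOCAG organoids it was 51.0 ± 0.552% in WT and 48.9 ± 0.251% in KO (n = 2), with no overlap, where 69.7% of tested genes did not overlap either. The shares thus stayed within 46.3% and 57.1% over all 16 libraries, while the summed keratin level of KOCAG organoids was 2213 ± 79.1 CPM per kb in WT and 3746 ± 382 in KO. The deposited length of Krt8 was 1805 bases for crypts and 1958 bases for KOIEC organoids. Its per-length values and the type II shares are therefore not measured alike in those experiments.

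In crypts the summed level was 3687 ± 376 CPM per kb in WT and 3717 ± 302 in KO (SD, n = 4), with overlapping libraries. In KOIEC organoids it was 2606 ± 540 in WT and 3690 ± 139 in KO (n = 2). There both KO libraries (3591 and 3788) lay above both WT libraries (2224 and 2988), beside 38.9% of tested genes that separated in either direction. Within the total, Krt8 took 45.2% to 56.5% of a library, and Krt19 22.3% to 41.7%.

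The composition of the type I side varied most. Krt20 made up 5.36%, 3.66%, 3.06% and 9.50% of keratin mRNA in the WT crypts and 7.43%, 9.73%, 12.6% and 15.5% in the KOIEC crypts. In KOCAG organoids it made up 1.94% and 2.26% in WT and 5.16% and 4.47% in KO, and Krt23 1.09 ± 0.105% and 1.87 ± 0.196% (SD, n = 2). The Krt18 share was lower there in KO, 15.2 ± 1.23% against 19.0 ± 0.754%, although its own level was higher. In KOIEC organoids the Krt20 share was 2.31% and 3.18% in WT and 2.68% and 2.71% in KO, so the groups overlapped.

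The ratio of Krt8 to Krt18 mRNA per length was 2.59 and 2.70 in the WT and 3.33 and 3.00 in the KO libraries of the KOCAG experiment. It was 4.32 and 3.07 in WT and 4.99 and 5.86 in KO in KOIEC organoids, again without overlap. Single genes separated often with so few libraries, 69.7% of those tested in KOCAG and 38.9% in KOIEC organoids. In crypts it was 7.27 to 11.2 in WT and 8.52 to 12.1 in KO, with overlapping libraries. A Krt8 pseudogene, Krt8-ps, was counted at 252 to 554 reads in crypts and 33 to 141 in organoids, so some reads of Krt8 may be split with its copy.

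**Figure D3:**
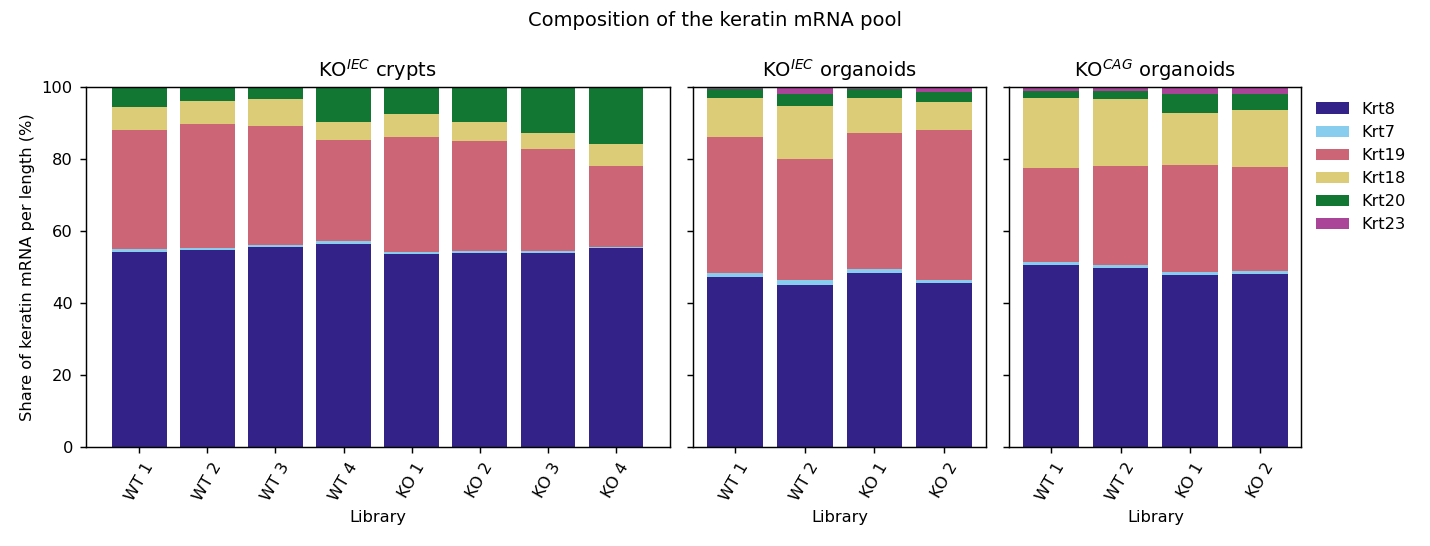
Share of each keratin in the keratin mRNA of a library, in percent of the summed CPM per kb, for every library of the 3 experiments; Krt8 and Krt7 (type II) form the lower part of each bar and Krt19, Krt18, Krt20 and Krt23 (type I) the upper, and Krt5 is too scarce to draw. The type II part stays between 46.3% and 57.1%, and the Krt20 part reaches 15.5% in crypt KO replicate 4.

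Villus enterocyte markers were measured beside Krt20. The 8 genes of that list (Alpi, Apoa4, Apoa1, Fabp1, Fabp2, Sis, Ada and Nt5e), none of them at 0, summed to 1728 to 7631 CPM in WT crypts and 6233 to 14418 CPM in KOIEC crypts. None of the 8 was called there, and their median log2 fold change was 1.56. The 8 crypt libraries had the same order by this sum and by Krt20, from WT replicate 3 through WT replicates 2 and 1, KO replicate 1, WT replicate 4 and KO replicates 2 and 3 to KO replicate 4. In KOCAG organoids the sum was 3878 and 4269 CPM in WT and 11228 and 8956 CPM in KO, and 6 of 7 tested markers were called higher, a list whose share is to be read beside the 18.1% of all genes. The largest values among them were those of Apoa1 (log2 fold change 2.39 ± 0.15, SE), Apoa4 (2.01 ± 0.13), Ada (2.00 ± 0.17) and Fabp2 (1.69 ± 0.14). In KOIEC organoids the sum was 5335 and 9316 CPM in WT and 3622 and 11831 CPM in KO, an overlap not shared by Krt20, which was higher in both KO libraries. In these bulk samples fewer or more cells of a type and less or more RNA per cell cannot be told apart, and the part of the enterocyte content in the Krt20 values was not tested.

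**Figure D4:**
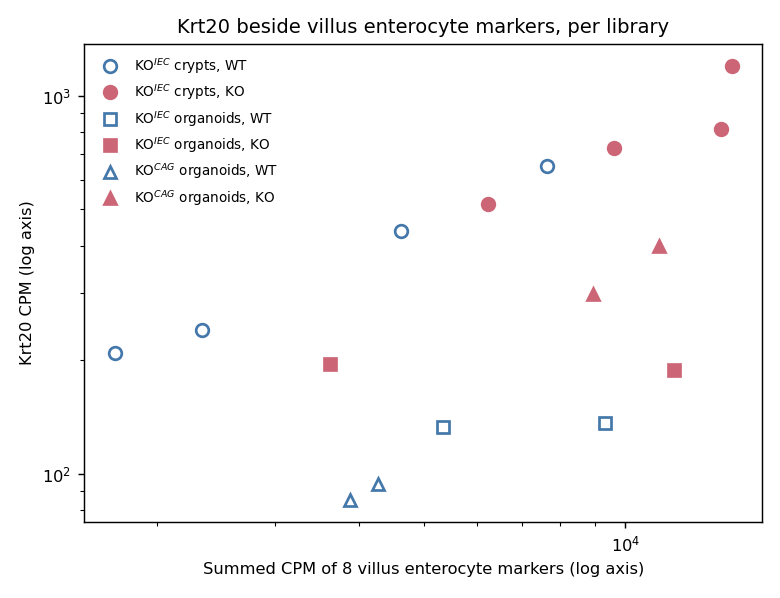
Krt20 CPM against the summed CPM of 8 villus enterocyte markers in each of the 16 libraries (both log axes), WT open and KO filled, with circles for crypts, squares for KOIEC organoids and triangles for KOCAG organoids. The 8 crypt libraries follow 1 order on both axes, from 209 to 1200 CPM of Krt20, whereas KOIEC organoids hold 133 to 195 CPM of Krt20 over marker sums of 3622 to 11831 CPM.

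The stem cell marker Lgr5 was called lower in crypts and KOCAG organoids. Lgr5, the receptor that marks crypt base stem cells, was 24.2 to 27.6 CPM in WT and 13.1 to 18.5 CPM in KOIEC crypts (log2 fold change −0.74 ± 0.13, SE, adjusted p = 0.0379, quasi-likelihood test of edgeR, Benjamini-Hochberg adjusted), and it was lower in all 4 KO libraries. In KOCAG organoids Lgr5 was 494 to 524 CPM in WT and 184 to 245 CPM in KO (−1.25 ± 0.13, adjusted p = 9.27e-05, same test). Of the 4 stem and cycling cell markers, 2 were called lower in crypts (Lgr5 and Ascl2), beside 2.66% of all tested genes, and 2 in KOCAG organoids (Lgr5 and the cycling marker Mki67), beside 13.4%. None was called higher in any experiment, and none was called in KOIEC organoids, where the fit called Cul4b alone. All 4 were nevertheless below 0 in KOIEC organoids (median log2 fold change −1.82), with Lgr5 at −1.50 ± 0.18. The calls in crypts are among the 934 whose number changed with single libraries.

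Markers of stratified epithelium were examined beside Krt5. The 10 genes of that list summed to 4.79 and 5.30 CPM in WT and 16.3 to 17.5 CPM in KOCAG organoids, and 1 of its 2 tested genes was called. This was Krt15, a type I keratin of basal cells, with 0.777 and 1.69 CPM in WT and 9.17 and 9.81 CPM in KO (log2 fold change 2.92 ± 0.34, SE). Like Krt5, Krt15 was tested only because of its reads in KO, so a difference between the groups was built into its passing the filter on low counts. Trp63, the transcription factor of basal cells, had 0 counts in both WT and 2 in each KO library, Krt14, the usual partner of Krt5, had 0 to 3 counts in WT and 0 to 1 in KO, and Krt13 had none. In crypts the sum was 6.83 to 8.33 CPM in WT and 4.28 to 7.54 CPM in KO, and in KOIEC organoids 3.11 to 4.31 and 3.04 to 5.30 CPM. Krt15 had reads in every library of both and went the other way there, with no call. Its log2 fold change was −0.53 ± 0.33 in crypts and −0.67 ± 0.50 in KOIEC organoids. Whether the Krt5 reads came from a few cells of another kind or from many epithelial cells cannot be told apart.

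The other 47 keratins gave few reads. In crypts 14 of them had no read in any library and 5 were tested, in KOIEC organoids 23 and 4, and in KOCAG organoids 19 and 4. Krt15 in KOCAG organoids, which passed the filter through its KO reads, was the only one called. The 47 genes summed to 8.42 to 12.4 CPM in WT and 24.7 to 25.2 CPM in KO there.

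Proteins that anchor keratin filaments to desmosomes and hemidesmosomes were taken, together with Fam83h, Tchp, Pof1b and Sfn, as a list of 19 genes. In KOCAG organoids 8 of 18 tested were called higher, beside 18.1% of all tested genes, and none lower. Their median log2 fold change was 0.17, beside 0.0012 over all genes. Plec, the cytolinker plectin, was 182 to 199 CPM in WT and 329 to 462 CPM in KO (1.05 ± 0.14, SE, adjusted p = 0.000457, quasi-likelihood test of edgeR, Benjamini-Hochberg adjusted). Itgb4, the hemidesmosomal integrin chain (0.85 ± 0.10), Ppl, periplakin (0.76 ± 0.11), and Dst, dystonin (0.73 ± 0.15), were also called. In crypts 2 of 18 were called higher, beside 4.3% of all tested genes: Plec (167 to 294 CPM in WT and 374 to 547 CPM in KO, 1.03 ± 0.20) and Dst (1.19 ± 0.30), with adjusted p of 0.0397 and 0.0495 in the same test. Both calls in crypts are among the 934 whose number changed with single libraries, and the WT and KO crypts overlapped for Dst. In KOIEC organoids none of 19 was called, the median was 0.32 and 17 of 19 were above 0.

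The actin-based cytoskeleton of the brush border, the apical microvilli of enterocytes, was a list of 16 genes. In crypts 5 of 16 were called higher, beside 4.3% of all tested genes, and none lower (median log2 fold change 0.68). They included Cdhr2, an adhesion protein between microvilli (1.37 ± 0.31, SE), Pls1 (1.34 ± 0.30), an actin bundler, Eps8l2 (1.09 ± 0.22) and Vil1, villin (1.00 ± 0.26). In KOCAG organoids 10 of 16 were called higher, beside 18.1% of all tested genes, and none lower, with a median of 0.37, among them Cdhr5 (1.57 ± 0.12), Cdhr2 (1.44 ± 0.13), Pls1 (0.73 ± 0.10) and Ezr, ezrin (0.69 ± 0.11). In KOIEC organoids none of 16 was called and 15 were above 0, with a median of 0.22. The calls in crypts belong to the 934 genes whose number depended on single libraries.

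Genes whose log2 CPM varied most like that of a keratin were listed over the 16 libraries after the mean of each experiment was subtracted, among 10681 genes. These are descriptions over libraries that share genotype, depth and experiment. Krt20 was most like Tmem106a (Pearson r = 0.98), Clec2h (0.98), Mep1b (0.98), a brush border metalloprotease, Srxn1 (0.97) and Osgin1 (0.97). Krt8 was most like S100a11 (0.94), Tmem125 (0.92), Myof (0.90), S100a6 (0.90) and Map2k3 (0.90). Krt19 was most like Slc35a2 (0.91), S100a11 (0.90), Tbc1d2 (0.89), Krt8 (0.88) and Tssc1 (0.88), so the Krt8 and Krt19 lists shared S100a11.

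Krt18 had its own neighbours, Dynlrb1 (r = 0.87), Ttpal (0.86), Plek2 (0.85), Lpcat4 (0.85) and Smox (0.85). Between members, Krt8 varied with Krt19 (r = 0.88, n = 16 libraries) more closely than with Krt18 (0.49). Krt20 varied with Krt8 at 0.60, with Krt23 at 0.51 and with Krt18 at 0.02.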

How the data were processed

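RNA-seq of 16 libraries in 3 experiments was analysed. The authors deposited raw read counts per gene, 1 table per experiment, with gene lengths. Libraries were made and sequenced by Novogene. HISAT2 2.0.5 and featureCounts 1.5.0-p3 are named in the submitters' processing notes. Strand use, genome build and annotation are not given in the sources used here. Start and end positions equalled those of GENCODE release M21 (GRCm38) for 95.2% of matched genes in the crypt and KOCAG tables and 98.3% in the KOIEC organoid table. Those of Krt5, Krt8 and Krt18 differed in the first 2 tables.

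The 7 members and all gene lists were chosen with earlier results of these data known. KO was compared with WT in each experiment with edgeR 4.0.16 (R 4.3.3): filterByExpr, TMM scaling, the quasi-likelihood F test and Benjamini-Hochberg adjustment over all tested genes, with a call at 0.05. Standard errors are the log2 fold change over the square root of F. Member rows are given without p-values. CPM is TMM-scaled, and CPM per kb is divided by the deposited gene length. Mitochondrial ribosomal RNA and the floor of 3 counts are relative to the library total. Named list genes are the 4 with the largest absolute change among those called, beside checks named in the text. Vil1, Trp63, Krt13 and Krt14 were also named after their values were seen. Genes like a keratin are the 5 with the highest correlation, at a mean CPM of at least 5. The members of each list are those written down with the design: 47 other keratins, 19 genes listed as keratin anchors, 14 other intermediate filament genes, 16 brush border genes, and markers of 11 cell types. Code for the tests was tested on simulated data. No library pair was near enough to be a duplicate. Alternatives were other scalings, filters, tests and designs, and leaving out each library. Counts of 7348191 to 16881395 per library limit what can be seen of Krt5, and floors cover counting error only.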

Additional observations from a re-analysis of the deposited data

Results flagged for a closer look

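In the 18 groups of 4 crypt libraries examined (the 7 members, the type II share and the Krt8 to Krt18 ratio, in WT and in KO), 3 had 1 library far from the other 3 by Dixon's criterion, and chance flags about 1 in 20 groups. Krt23 was 18.9 CPM in KO replicate 4 against 3.70 to 4.98 CPM in the other KOIEC crypts. The type II share was 55.7% in the same library against 54.3% to 54.5% in the others. Krt5 was 0.161 CPM, or 2 counts, in WT replicate 4 and 0 in the other WT crypts, a level under the floor of 3 counts. With the other WT crypts at 0, any count would have been flagged. Krt5 was 0 in all KOIEC crypts and could not be flagged there, so the rate of 1 in 20 does not apply to Krt5.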

How the results depend on the processing

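In crypts the number of genes called was 934, and it was 1479 without a low-count filter, 2362 with the DESeq2 Wald test, 1659 with all 16 libraries in 1 fit, 2 with the mitochondrial rRNA class as a covariate, 1 without the libraries of the high class (an alternative chosen after seeing the data), and 2 to 2468 when 1 library was left out. Members called there were 0, and 1 (Krt20) without a low-count filter, in 1 fit of all libraries, and at most when a library was left out (0 to 1). In KOIEC organoids the number of genes called was 1, and 223 without a filter, 26 with DESeq2, 18 in 1 fit, and 0 to 2322 when a library was left out. In KOCAG organoids it was 4278, and 2530 with DESeq2, 477 in 1 fit and 2789 to 5177 when a library was left out, and members called were 7, with 3 in 1 fit and 6 to 7 when a library was left out. Direction reversed, with no call, for Krt8 in crypts (−0.056 to 0.058 when a library was left out), Krt23 in crypts (−0.51 to 0.61), Krt18 in KOIEC organoids (−0.23 to 0.16) and Krt23 in KOIEC organoids (−1.10 to 0.84 when a library was left out and −0.039 with scaling by library size only). No member reversed in KOCAG organoids under any alternative run. The causes were not tested.

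Replicate numbers are shared between WT and KO in the labels, but nothing says that a number marks a shared animal or batch. Same-numbered libraries deviated together at correlations of −0.04, 0.19, −0.40 and 0.43 in crypts, 0.34 in KOIEC organoids and 0.07 in KOCAG organoids, and not every library correlated best with its own number. With a replicate block, 4 genes were called in crypts and no member, and Krt23 in KOIEC organoids was −0.059. The block changed no call of a member. Levels near the floor limit Krt5, and the spread between libraries limits Krt23 in crypts and KOIEC organoids.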

Other observations

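Other intermediate filament genes, 14 in the list, were measured in the same way. Of 9 tested in KOCAG organoids, 5 were called higher and none lower by edgeR's quasi-likelihood test, beside 18.1% of all tested genes called higher, with a median log2 fold change of 0.58. Lmna, the gene of the nuclear lamins A and C, was higher by 1.57 ± 0.10 (SE, adjusted p = 8.85e-06), Nes, nestin, by 1.92 ± 0.30, Synm, synemin, by 1.82 ± 0.45 and Nefl, a neurofilament gene, by 1.34 ± 0.45. None of 5 tested in crypts and none of 8 in KOIEC organoids was called.

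Secretory cell markers were measured beside them. In KOCAG organoids all 3 goblet markers (Tff3 0.82 ± 0.09, Muc2 0.71 ± 0.10 and Spink4 0.60 ± 0.09, log2 fold change and SE) and both Paneth markers (Mmp7 1.55 ± 0.09 and Lyz1 0.96 ± 0.11) were called higher, and neither of 2 tuft markers was. These counts are to be read beside the 18.1% of all tested genes called higher there. In crypts and KOIEC organoids no goblet, Paneth or tuft marker was called, where 6.96% and 0.00717% of all tested genes were. The median over the Paneth markers was −0.89 and −0.67. Mesothelial markers summed to 23.0 to 32.0 CPM in WT and 35.6 to 52.1 CPM in KOCAG organoids, with Msln higher by 2.23 ± 0.45 and Upk3b lower at −2.17 ± 0.22. Fibroblast, smooth muscle, endothelial and immune markers had no tested gene in either kind of organoid, and none was called in crypts, where immune markers summed to 11.4 to 36.8 CPM in WT and 17.1 to 80.0 CPM in KO.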
